A study of Mus musculus with 6 samples.

Results

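Core stretches of lamina-associated domains (LADs) of 300 kb to 1 Mb were the contiguous autosomal intervals that lay inside a LAD in all 3 lamin knockdown maps of mouse embryonic fibroblasts (MEFs). They were found by intersecting the 3 deposited LAD lists on chromosomes 1 to 19 and keeping every stretch of at least 300000 and under 1000000 bp. The rule gave 794 stretches of 1849 core stretches of any length. These 794 made up 42.9% of the core stretches and, with 437.6 Mb, 34.1% of the core length and 18.4% of the 2376 Mb covered by fragments. The remaining core stretches were 353 of 1 Mb or more and 702 under 300 kb. The stretches were thus chosen by LAD calls made from the same lamina signal, so the signal level inside a stretch is what the rule used and is given as a description.

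The cells were wild-type C57BL/6 MEFs, connective tissue cells grown from mouse embryos, and all groups carried a lentiviral shRNA and had been selected with puromycin at 2 ug/ml. After recovery they were transduced with a second lentivirus that expressed either Dam alone or Dam joined to a lamin. Dam is a bacterial adenine methyltransferase that marks GATC sites close to the protein it is joined to. The 6 libraries, 1 per group, made 3 maps: LmnA RNAi and LmnC RNAi, each with a Dam-only and a Dam-LmnB1 library, and LmnB1 RNAi with a Dam-only and a Dam-LmnA library. The labels' protocol text names shRNA against LmnA and LmnC and the Dam-LmnB1 fusion, whereas the LmnB1 target and the Dam-LmnA fusion come from the sample description and title. Knockdown target and fusion protein therefore cannot be told apart in any comparison with the LmnB1 RNAi map. RNA and protein were not measured, so depletion of each lamin was not checked, and no map of shRNA-free cells was analysed here.

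Lamins are intermediate filament proteins that form a meshwork under the inner nuclear membrane. Lamin A and lamin C are splice forms of the Lmna gene, and lamin B1 comes from Lmnb1. B-type lamins stay bound to the membrane, while A-type lamins are also found in the nuclear interior. LADs are long chromosome segments that touch this meshwork. They are in general poor in genes, late in replication and low in transcription, and their borders are often sharp. LADs shared by many conditions or cell types tend to be AT-rich, and contacts at the remaining LADs vary more between cells.

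Each map gives 1 log2 ratio of fusion over Dam-only reads per GATC fragment, the piece of DNA between neighbouring GATC sites. The 794 stretches held 1124019 of the 5972542 autosomal fragments, between 682 and 3357 per stretch with a median of 1308. The value of a stretch is the mean over its fragments weighted by fragment length, with a standard error (SE) over fragments whose median was 0.14 in the LmnA RNAi map and 0.13 in each of the other maps. Means from alternate fragments of the same stretch correlated at r = 0.906, 0.951 and 0.923 over the 794 stretches in the LmnA, LmnC and LmnB1 RNAi maps. This error covers the noise between fragments of 1 map only. With 1 map per knockdown no spread between cultures could be measured, no p-value is given and every difference is one between these maps. The depth of each library is not known, since the files hold ratios.

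The median length was 512 kb, the middle 50% lay between 390 and 678 kb, and the shortest and longest stretches were 300.2 and 999.7 kb. Short stretches were the most numerous: 219 measured 300 to 400 kb, 160 measured 400 to 500 kb and 47 measured 900 to 1000 kb. Every autosome held some, from 24 on chromosome 19 to 64 on chromosome 1. Their share of the covered chromosome ran from 13.2% on chromosome 16 to 23.7% on chromosome 9. Along the chromosomes, cut into 5 equal parts from the centromeric end, the parts held 154, 167, 141, 155 and 177 stretches. The stretches were thus spread over all chromosomes and along them, with no part holding more than 22.3%. The 27 stretches on chromosome 18 are included in all counts and are not named singly.

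As deposited, lamina signal in these stretches was highest after LmnA RNAi, but the order of the maps depended on where 0 was set. The median stretch measured 2.33 in the LmnA RNAi map, with stretches from 0.43 to 3.87. In the LmnC RNAi map the median was 1.45, with a range from -0.87 to 2.78. In the LmnB1 RNAi map it was 1.60, with a range from -0.15 to 2.95. The 3 ranges overlapped widely. The middle 50% of stretches spanned 1.86 to 2.67, 0.82 to 1.93 and 1.14 to 2.00 in these maps. Above the median autosomal 500 kb window of the same map, the median stretch measured 1.24, 1.51 and 1.20, and LmnC RNAi was then highest.

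The stretches were intermediate between shorter and longer core stretches in all 3 maps, except that the plain mean over fragments put the LmnA RNAi median of 3.85 above that of stretches of 1 Mb or more, 3.74. Core stretches of 1 Mb or more had medians of 2.46, 1.83 and 1.99 in the LmnA, LmnC and LmnB1 RNAi maps, and those under 300 kb had 1.91, 0.97 and 1.24. For 443 stretches of 300 kb to 1 Mb that lay in no LAD of any map the medians were -1.96, -3.06 and -2.15. The same gradient ran within the 794: stretches of 300 to 400 kb had medians of 2.21, 1.22 and 1.40, and stretches of 900 to 1000 kb had 2.48, 1.63 and 1.86. Length and signal correlated weakly over the 794 stretches, at r = 0.19, 0.17 and 0.19. All these values come from the signal that defined the LADs.

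**Figure D1:**
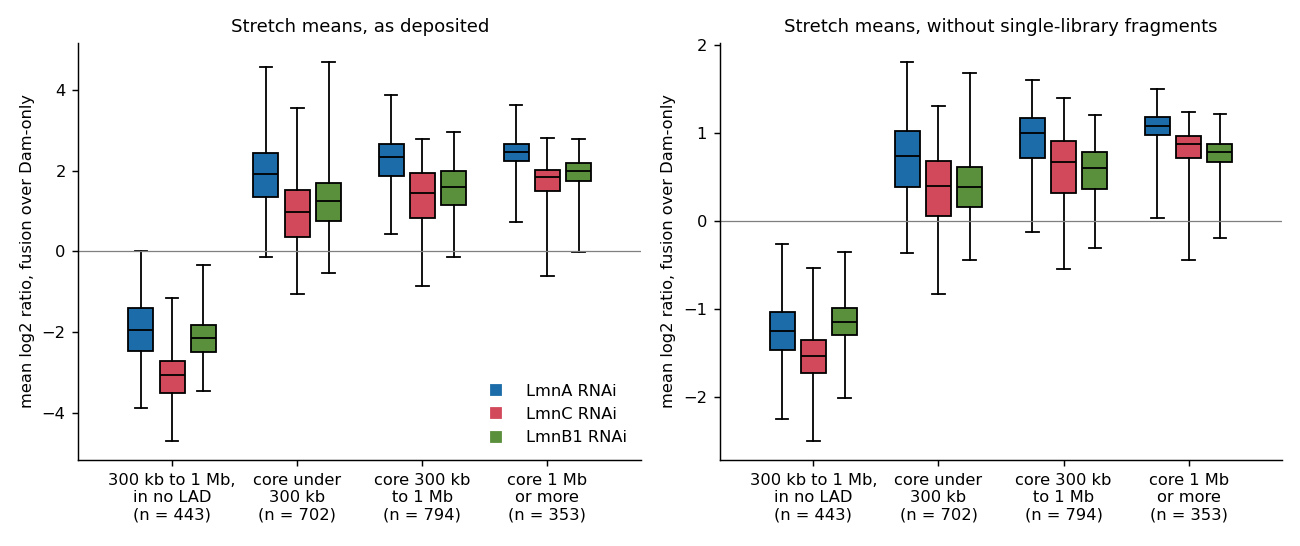
Mean log2 ratio of fusion over Dam-only reads per stretch (y axis) for the 3 knockdown maps in 4 classes of stretch, as deposited (left) and without fragments read in 1 library alone (right). Boxes give the median and middle 50% and whiskers the lowest and highest stretch; core stretches of 300 kb to 1 Mb had deposited medians of 2.33, 1.45 and 1.60, between those of shorter and longer core stretches.

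The size of these ratios depends on fragments read in 1 of the 2 libraries alone. The authors' values carry a small number, 1e-05, added to both read counts before the log, so a fragment with 0 reads in 1 library takes a value near 17 in size or beyond. Inside the 794 stretches 23.1%, 18.3% and 19.2% of fragments were read in the fusion library alone in the LmnA, LmnC and LmnB1 RNAi maps. Those found in the Dam-only library alone made up 4.01%, 5.85% and 5.27%. These fragments held 11.8, 4.10 and 5.32 fusion reads per Dam-only read, against 0.198, 0.0506 and 0.106 in the 443 stretches in no LAD. Left out, the medians of the 794 stretches fell to 1.00, 0.66 and 0.59. With fragments of 500 bp or more alone, few of which are read in 1 library only, they were 1.08, 0.47 and 0.62. Values with and without these fragments correlated at r = 0.95, 0.979 and 0.953 over the stretches. The rank of stretches within a map moved little, with rank correlations of 0.934, 0.974 and 0.946.

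Short fragments were the ones read in 1 library. Among fragments of 100 to 250 bp inside the stretches, 45.1%, 38.2% and 39.3% were read in the fusion library alone in the LmnA, LmnC and LmnB1 RNAi maps. Among fragments of 1000 bp or more the shares were 0.136%, 0.0374% and 0.0823%. Fragments of 100 to 250 bp made up 25.2% of all fragments but 10.9% of their length. Weighting by length therefore lowers their part, and a plain mean over fragments gave higher medians of 3.85, 2.84 and 2.78.

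A few stretches show what the range looks like. The stretch closest to all medians, chr11:52477496-53028498 (mm9, 551 kb, 1315 fragments), measured 2.34 ± 0.12 (SE over fragments, as for the next stretches) with LmnA RNAi, 1.51 ± 0.12 with LmnC RNAi and 1.66 ± 0.12 with LmnB1 RNAi. The following triplets keep this order of maps. The stretch with the highest value in its lowest map was chr2:175374803-175992526 (618 kb), with 3.87 ± 0.18, 2.77 ± 0.17 and 2.80 ± 0.17. It also had the highest LmnA RNAi value of all 794. It held 299.5 GATC fragments per 100 kb and lay 50 kb from the next core stretch. The LADs around it measured 4800 and 3833 kb in the LmnA and LmnC RNAi lists. In the LmnB1 RNAi list it was 1 whole LAD. The lowest LmnC RNAi value belonged to chr15:59992614-60350054 (357 kb), with 0.50 ± 0.16, -0.87 ± 0.16 and -0.05 ± 0.14. This stretch was 1 whole LAD in the LmnA RNAi list, while the LADs around it in the LmnC and LmnB1 RNAi lists measured 462 and 685 kb. The lowest LmnA RNAi value was 0.43 ± 0.16, at chr13:55848720-56164000 (315 kb), where the LmnC and LmnB1 RNAi values were -0.38 ± 0.16 and -0.13 ± 0.15.

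A stretch can be a LAD in a deposited list and still have a mean ratio below 0, where 0 itself depends on the constant of the map. This held for 0 stretches in the LmnA RNAi map, 60 (7.56%) in the LmnC RNAi map and 6 in the LmnB1 RNAi map, and all 6 were among the 60. Of 4800 autosomal 500 kb windows, 34%, 50.9% and 43.8% were below 0 in these maps. Since the rule used the level, nothing is read from that contrast. The 60 stretches lay on 17 chromosomes, had a median length of 429 kb and had median values of 1.25, -0.30 and 0.50 in the LmnA, LmnC and LmnB1 RNAi maps. Their share of fragments read in the fusion library alone had a median of 10.96% in the LmnC RNAi map, against 18.8% in the other 734 stretches. Such fragments raise the mean by which the 60 were picked, so nothing is read from this difference. All 60 were also below 0 after LmnC RNAi once single-library fragments were left out, when the counts rose to 4, 81 and 35 in the LmnA, LmnC and LmnB1 RNAi maps (background 41.7%, 53.1% and 49.5%). With fragments of 500 bp or more the counts were 5, 155 and 40 (background 42.1%, 59.1% and 50.1%). Core stretches of 1 Mb or more had 5 of 353 below 0 after LmnC RNAi and those under 300 kb had 95 of 702.

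Since Dam-LmnB1 was used for both LmnA and LmnC RNAi, this pair of maps sets knockdown of either splice form against the other with the same fusion. The median difference of LmnA minus LmnC RNAi was 0.87 on the log2 scale over the 794 stretches and 0.91 over the 500 kb windows. It was above 0.5 in 691 stretches (87.0%) and in 84.2% of windows, and below -0.5 in 0 stretches and 0% of windows. A share this close to the background describes the maps as a whole rather than these stretches. Differences ran from -0.08 to 2.41 and alternate fragments gave them with r = 0.717, with an SD of 0.16 estimated from them for the full value. The SD of the difference over stretches was 0.39, so stretches differed by more than the noise between fragments.

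When each map was centred on its median window, the median LmnA minus LmnC RNAi difference became -0.28, with 31 stretches above 0.5 (3.904%, background 9.48%) and 221 below -0.5 (27.8%, background 27%). The direction between these maps therefore rests on where 0 is set. Without single-library fragments the median was 0.31 and 163 stretches were above 0.5 (20.5%, background 18.5%), and with 1 read added to these fragments 152 were (19.1%, background 19%). With fragments of 500 bp or more it was 0.61 with 551 above 0.5 (69.4%, background 64.8%) and 0 below -0.5 (background 0.0208%), and in these last settings the share above 0.5 in stretches lay close to that in windows.

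The LmnA minus LmnC RNAi difference tended to be larger where signal was low. Over the 794 stretches it correlated at r = -0.46 with the LmnB1 RNAi value, which is no part of it, and at -0.19 and -0.647 with the LmnA and LmnC RNAi values, which are. The largest difference, 2.41, was at chr4:99637955-100440962 (803 kb, 1975 fragments), which measured 1.61 ± 0.11, -0.80 ± 0.12 and -0.03 ± 0.10 in the LmnA, LmnC and LmnB1 RNAi maps. Without single-library fragments it was 0.99. The next were chr19:30939259-31316622, with 1.67 ± 0.17 against -0.68 ± 0.17, and chr3:137048586-137499601, with 1.90 ± 0.16 against -0.44 ± 0.14. At the other end, chr16:3231575-3708666 measured 1.83 ± 0.16 after LmnA RNAi and 1.91 ± 0.15 after LmnC RNAi, which did not differ beyond the error over fragments. Next in this direction were chr7:8721341-9452281, with 2.35 ± 0.16 and 2.34 ± 0.13, and chr2:157439211-157804071, with 0.76 ± 0.14 and 0.71 ± 0.14.

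Against LmnB1 RNAi, which differs in knockdown and fusion, the LmnA RNAi map was higher by a median of 0.70 over the stretches and 0.48 over windows. It was higher by more than 0.5 in 590 stretches (74.3%, background 48.1%) and lower by more than 0.5 in 2 (background 2.52%). Centring moved the median to 0.02 and gave 59 stretches above 0.5 (background 6.12%) and 46 below -0.5 (background 28.9%). Without single-library fragments the median was 0.39, with 203 stretches above 0.5 (25.6%, background 10.7%) and 0 below -0.5 (background 0.417%). With 1 read added the counts were 174 (background 10.1%) and 0 (background 0.271%). With fragments of 500 bp or more they were 315 (background 18.8%) and 0 (background 4.38%). The windows include sequence in no LAD, and the stretches were picked by the signal in all maps, so nothing is read from the excess over windows. Core stretches of 1 Mb or more had a median of 0.51, those under 300 kb 0.64 and the stretches in no LAD 0.19.

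The largest LmnA minus LmnB1 RNAi difference, 1.78, was at chr17:86110692-86516513 (406 kb), with 2.58 ± 0.14, 1.26 ± 0.13 and 0.81 ± 0.12 in the LmnA, LmnC and LmnB1 RNAi maps. At chr17:49670284-50173043 (503 kb) the values were 1.83 ± 0.14, 0.22 ± 0.14 and 0.12 ± 0.13. The opposite order was seen at chr16:67191008-67581475 (390 kb), with 1.51 ± 0.18, 1.21 ± 0.15 and 2.29 ± 0.16, and at chr12:94933639-95289240 (356 kb), with 1.69 ± 0.19, 1.45 ± 0.19 and 2.22 ± 0.16. These were the 2 stretches lower by more than 0.5. The chromosome 16 stretch also had the fewest GATC fragments of all, 202.3 per 100 kb.

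As deposited, the LmnC and LmnB1 RNAi maps had the smallest median difference over the stretches, but with centred maps LmnA and LmnB1 RNAi did. With centred maps and fragments of 500 bp or more, LmnA and LmnC RNAi did. Medians there were -0.087 for LmnA minus LmnC, 0.12 for LmnA minus LmnB1 and 0.20 for LmnC minus LmnB1 RNAi. The median LmnC minus LmnB1 RNAi difference as deposited was -0.16 over the stretches and -0.52 over windows. It was above 0.5 in 14 stretches (background 1.15%) and below -0.5 in 167 (21.0%, background 51.3%). The sign depended on the setting: 0.30 with centred maps (223 above 0.5, background 11.4%, and 29 below -0.5, background 17.8%), 0.06 without single-library fragments (0 above 0.5, background 0.0417%, and 2 below -0.5, background 4.25%) and -0.17 with fragments of 500 bp or more (0 above 0.5, background 0.0208%, and 93 below -0.5, background 41.5%). With 1 read added, 0 stretches were above 0.5 (background 0.0417%) and 3 below -0.5 (background 3.46%). Windows had medians of -0.05, -0.14 and -0.42 in these settings. As deposited, core stretches of 1 Mb or more had a median of -0.21, those under 300 kb -0.28 and stretches in no LAD -0.96, so the values of the 794 were near those of other core stretches. The lowest difference, -1.52, was at chr13:89824793-90174677 (350 kb), with 1.32 ± 0.18, -0.86 ± 0.15 and 0.66 ± 0.17. At chr3:79896109-80663614 (768 kb) the LmnC RNAi value was -0.57 ± 0.11 and the LmnB1 RNAi value 0.87 ± 0.10. The highest, 0.70, was at chr12:22824440-23684469 (860 kb), with 1.89 ± 0.11 and 1.18 ± 0.10.

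Most stretches ranked the maps in the same way. LmnA RNAi was highest, LmnB1 RNAi second and LmnC RNAi lowest in 521 stretches (65.6%), and LmnA, LmnC and LmnB1 RNAi in that order in 249 (31.4%). LmnB1 RNAi was highest in 23 stretches and LmnC RNAi in 1. Without single-library fragments the counts of the first and second order turned to 295 and 463. With fragments of 500 bp or more they were 579 and 180, close to the counts as deposited. LmnA RNAi was thus the highest map in 770 stretches as deposited, while the order of the other maps differed between settings. The median autosomal 500 kb window as deposited also had LmnA RNAi highest and LmnC RNAi lowest. It measured 1.09, -0.06 and 0.40 in the LmnA, LmnC and LmnB1 RNAi maps. Orders were counted neither over windows nor with centred maps. Nothing particular to the stretches is therefore read from these counts. Stretch means correlated at r = 0.871 between LmnA and LmnC RNAi, 0.836 between LmnA and LmnB1 RNAi and 0.879 between LmnC and LmnB1 RNAi. The maps share the fragments and their lengths, but no library.

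**Figure D2:**
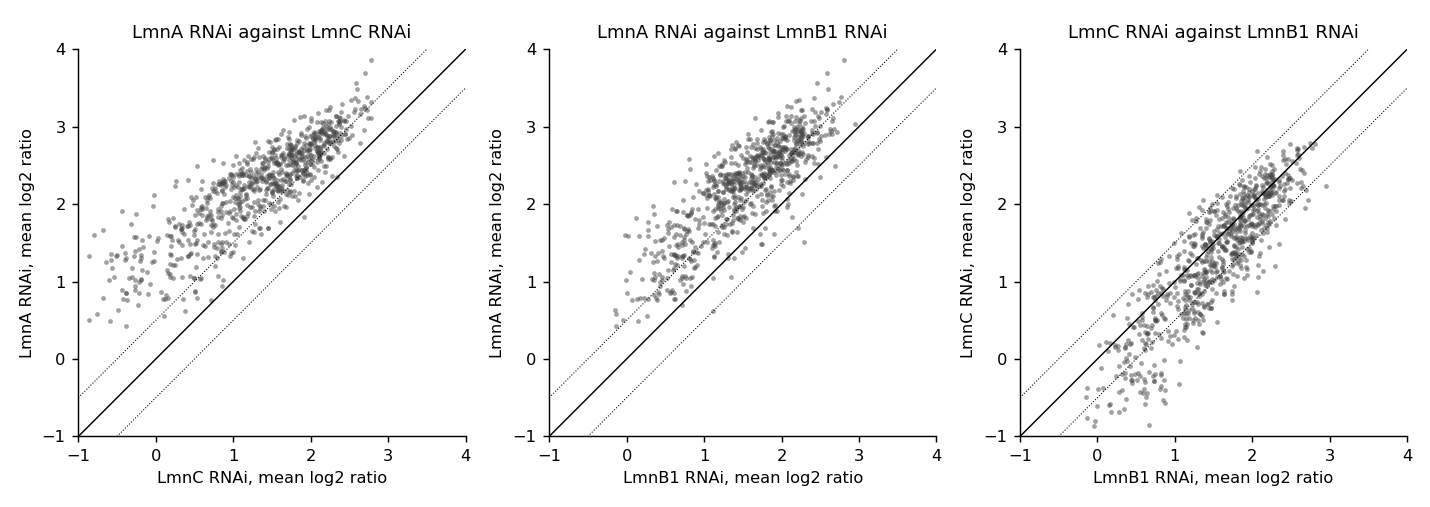
Mean log2 ratio of each of the 794 core stretches of 300 kb to 1 Mb in 1 map (y axis) against another (x axis); the solid line marks equal values and the dotted lines a difference of 0.5. Most points lie above the line in both LmnA RNAi panels, with 691 and 590 stretches higher by more than 0.5. They spread around it between LmnC and LmnB1 RNAi, falling below at low values.

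The maps also rose and fell together inside a stretch. In 20 kb windows the median correlation within a stretch was 0.58 between LmnA and LmnC RNAi, 0.53 between LmnA and LmnB1 RNAi and 0.59 between LmnC and LmnB1 RNAi. Without single-library fragments these medians were 0.81, 0.73 and 0.79. With fragments of 500 bp or more they were 0.56, 0.50 and 0.53. The correlation was above 0 in at least 783 of the 794 stretches for each pair as deposited, and in at least 766 with fragments of 500 bp or more. It was not measured in other sequence, so whether these stretches differ from the rest is not known. The SD between windows of 1 stretch had a median of 0.98, 0.95 and 0.91, and the SD between stretch means was 0.61, 0.78 and 0.62. A 20 kb window holds far fewer fragments than a stretch, so its mean carries more noise between fragments. How much of the SD between windows is such noise was not measured, so these SDs are not compared.

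**Figure D3:**
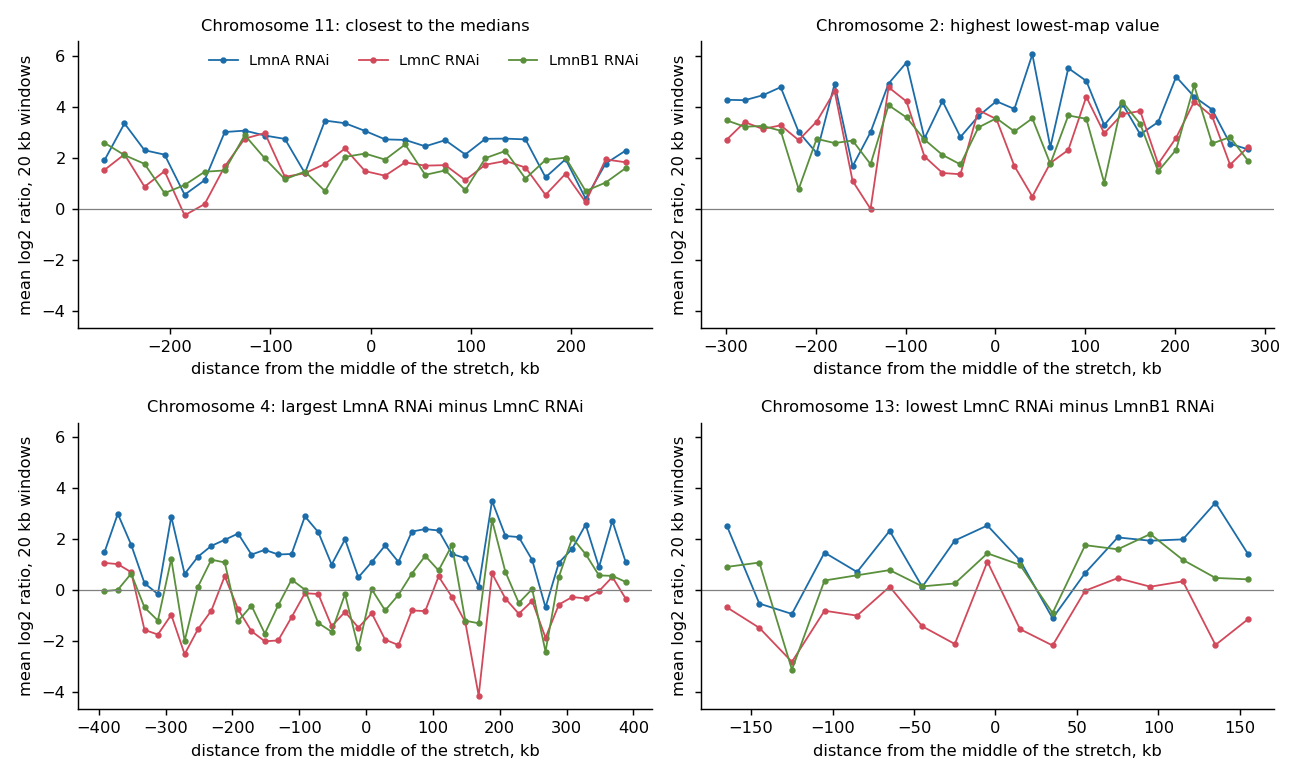
Mean log2 ratio in 20 kb windows (y axis) against distance from the middle of the stretch in kb (x axis) for 4 stretches: closest to all medians, highest value in its lowest map, largest LmnA minus LmnC RNAi difference and lowest LmnC minus LmnB1 RNAi difference. The 3 maps share many peaks and dips within each stretch, while the LmnC RNAi line lies lowest over most of the chromosome 4 and 13 examples, with means of -0.80 and -0.86.

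As deposited, nearly all windows inside a stretch were above 0 in the LmnA RNAi map. Of 21494 windows, 660 (3.07%), 3013 (14.0%) and 1785 (8.30%) were below 0 in the LmnA, LmnC and LmnB1 RNAi maps, against 35.7%, 49.1% and 43.2% of all autosomal 20 kb windows. Since the rule used the level, nothing is read from this contrast. Shares below 0 inside stretches were 6.08%, 16.0% and 11.9% without single-library fragments and 8.72%, 26.1% and 14.9% with fragments of 500 bp or more. No background per map was taken in these settings. Windows below 0 in all 3 maps numbered 380 (1.77%, background 33.4%) and lay in 235 stretches. This count depended on the fragments used: it was 960 (4.47%, background 39.6%) in 378 stretches without single-library fragments, 874 (background 39.1%) with 1 read added and 1013 (4.71%, background 38.2%) in 401 stretches with fragments of 500 bp or more. Such dips were found at all distances from the edges, in 1.42% of windows within 50 kb of an edge and 1.72% of those 150 kb or more inside. The deepest interior dip, ranked by its highest map among windows at least 100 kb from an edge and not on chromosome 18, was chr3:66772302-66792301, 184 kb inside a stretch. It measured -2.61, -5.42 and -2.68 in the LmnA, LmnC and LmnB1 RNAi maps, where the whole stretch measured 1.42, -0.22 and 0.23. A like dip at chr16:14697841-14717840 measured -2.39, -2.82 and -3.21 inside a stretch with 2.02, 0.87 and 1.26. No mm9 annotation was used here, so the genes at these dips are not given.

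Signal was slightly higher in the middle of a stretch than in its first and last 50 kb. The median difference was 0.13, 0.16 and 0.15 in the LmnA, LmnC and LmnB1 RNAi maps. The middle was higher in 469, 489 and 475 of the 794 stretches, and the middle 50% of differences ran from -0.22 to 0.51, -0.21 to 0.52 and -0.21 to 0.47. Many stretches thus had the higher signal at an edge. Without single-library fragments the medians were 0.094, 0.11 and 0.087.

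The step at the edges was much larger than the slope inside. Averaged over 1150 edges of the stretches of 400 kb or more, the LmnA RNAi signal went from -0.26 ± 0.05 (SE over edges) at 10 to 20 kb outside to 2.11 ± 0.04 in the first 10 kb inside. The LmnC RNAi signal went from -1.47 ± 0.05 to 1.21 ± 0.04 and the LmnB1 RNAi signal from -0.96 ± 0.05 to 1.44 ± 0.04. Farther out, at 190 to 200 kb, the means were 0.44, -0.72 and -0.18, above those next to the edge. An edge is by definition a LAD border in at least 1 map, so a step there is what the rule fixes.

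Maps seldom agreed on where an edge lies. Of the 1588 edges, all 3 LAD borders fell within 10 kb in 230 (14.5%), against 14.9% for core stretches of 1 Mb or more and 16.2% for those under 300 kb. Only 24 stretches (3.02%) had both edges shared in this sense. The border of LmnC RNAi alone set 655 edges (41.2%), that of LmnB1 RNAi alone 607 (38.2%) and that of LmnA RNAi alone 285 (17.9%), while 11 edges had the same border in all maps. The LmnA RNAi LAD ran on by more than 100 kb past 667 edges (42.0%), against 332 (20.9%) for LmnC RNAi and 360 (22.7%) for LmnB1 RNAi. At the 173 shared edges of stretches of 400 kb or more the step was deeper, from -1.81 to 2.13, -2.81 to 1.25 and -2.24 to 1.38 in the LmnA, LmnC and LmnB1 RNAi maps. At 283 edges of these stretches set by LmnC RNAi alone, where the LmnA RNAi LAD ran over 50 kb farther, the signal 90 to 100 kb outside was 1.06 ± 0.13, -0.28 ± 0.14 and 0.18 ± 0.13 in the LmnA, LmnC and LmnB1 RNAi maps. All maps still dipped next to these edges, to 0.30, -1.41 and -0.45 at 10 to 20 kb outside. Both sets of edges were picked by LAD borders called from this same signal. The deeper step and the higher LmnA RNAi signal outside follow from that choice, so nothing is read from them.

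**Figure D4:**
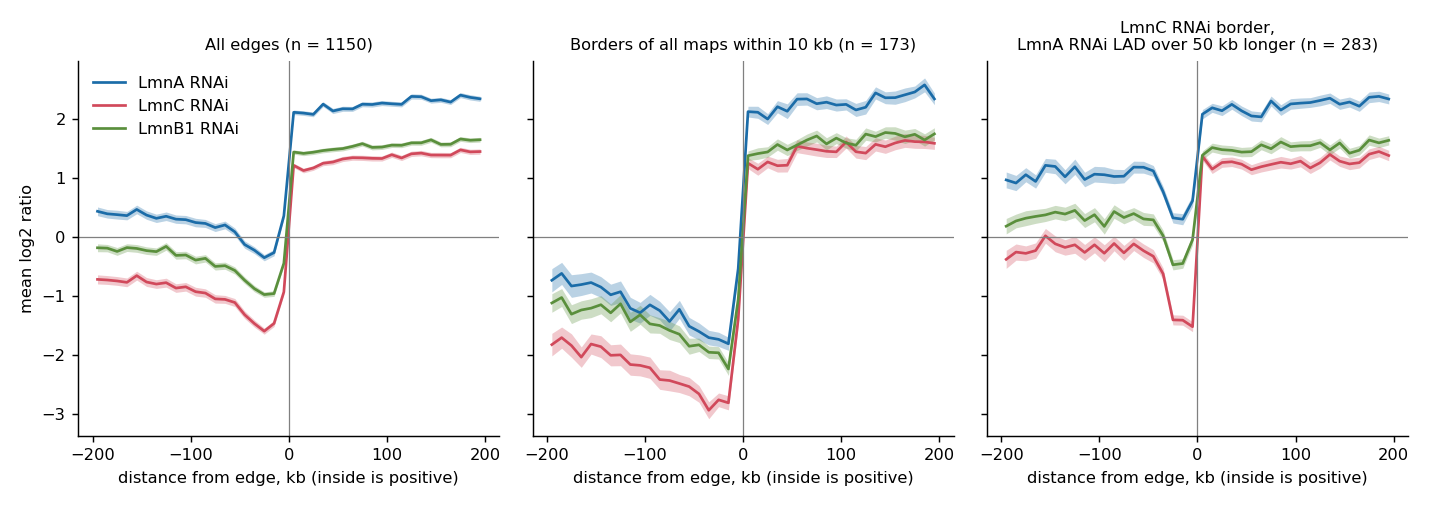
Mean log2 ratio in 10 kb bins (y axis) against distance from the edge of a stretch in kb, with the inside positive (x axis), for stretches of 400 kb or more; bands give the SE over edges. The step is deepest where all borders lie within 10 kb (centre), and where the border is that of LmnC RNAi and the LmnA RNAi LAD runs on (right) the LmnA RNAi mean stays above 0 outside, with 1.06 at 90 to 100 kb. The edges in these panels were picked by borders called from this signal, so both patterns follow from the choice.

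A core stretch is in many cases the remainder of a longer LAD of 1 map. The LADs that held the stretches measured 933, 658 and 687 kb at the median in the LmnA, LmnC and LmnB1 RNAi lists. The median stretch filled 61.5%, 94.0% and 91.4% of its LAD. In the LmnA RNAi list 407 stretches shared their LAD with another core stretch, against 253 and 271 in the LmnC and LmnB1 RNAi lists. In all lists 288 stretches (36.3%) were the only core stretch of their LAD, and 55 (6.93%) shared their LAD everywhere. The 288 had medians of 2.19, 1.26 and 1.40 and the 55 had 2.53, 1.72 and 1.69, in the LmnA, LmnC and LmnB1 RNAi maps.

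Breaks next to the stretches showed which map broke the LAD. Of 1240 breaks beside a stretch, 733 (59.1%) were bridged from end to end by no LAD of any map, with a median length of 499 kb. Parts of such a break can still lie in a LAD of some maps. The LmnA RNAi LADs alone bridged 111 breaks, with a median length of 151 kb and median values of 0.45, -1.16 and -0.64 in the LmnA, LmnC and LmnB1 RNAi maps. LmnC RNAi alone bridged 21 and LmnB1 RNAi alone 41. LmnA with LmnB1 RNAi bridged 138, with a median length of 45 kb, and LmnA with LmnC RNAi 139, with a median length of 50 kb. LmnC with LmnB1 RNAi bridged 57, with a median length of 44 kb, which are breaks of the LmnA RNAi list alone. Some breaks are assembly gaps, intervals of at least 10 kb with no fragment. Within 10 kb of such a gap lay 77 edges (4.85%) of 66 stretches, and the border at all 77 was that of the LmnB1 RNAi list. Of 135 autosomal gaps, 102 lay inside a LAD of the LmnA RNAi list, 90 inside one of the LmnC RNAi list and 8 inside one of the LmnB1 RNAi list. Whether the LmnB1 RNAi list was called with another treatment of gaps is not stated, and a different treatment and a different border cannot be told apart at these edges. A gap lay in 54 of the 139 breaks bridged by LmnA with LmnC RNAi. Away from gaps, LmnC RNAi alone set 655 of 1511 edges (43.3%), LmnB1 RNAi alone 530 (35.1%) and LmnA RNAi alone 285 (18.9%). These 66 stretches had medians of 2.58, 1.93 and 1.86 and a LmnC minus LmnB1 RNAi difference of 0.09, against -0.21 in the other 728. Their GATC density was 272.5 fragments per 100 kb, against 251.9. Removing the gaps from all lists before the intersection gave 795 stretches in place of 794.

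The stretches were richer in GATC sites than sequence in no LAD. The rule did not use GATC density itself, but the LADs were called from the lamina signal, which rose with density inside these stretches. The higher density can therefore not be taken as independent of how the stretches were chosen. They held a median of 252.5 GATC fragments per 100 kb, against 238.8 in the 443 stretches of the same length class in no LAD. Longer and shorter core stretches held 254.4 and 254.0, so the density did not set the 794 apart from other core stretches. The median was higher in the stretches than outside LADs on 19 of 19 chromosomes. Of the 794, 646 (81.4%) lay above the median of the 443 and 152 (19.1%) above the highest of them, 272.3. The lowest and highest stretches had 202.3 and 335.8. The highest was chr7:5071994-6071736, also the longest at 999.7 kb, with 2.67 ± 0.12, 2.09 ± 0.11 and 2.17 ± 0.12 in the LmnA, LmnC and LmnB1 RNAi maps. Next came chr5:93713191-94517361 with 335.1 and chr17:36453576-36954898 with 335.1, and both had values above all 3 medians. The stretches with the fewest after the chromosome 16 one were chr12:41941542-42293786 with 209.2 and chr1:68839831-69282994 with 211.4.

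Signal rose with GATC density. The stretches were put into 4 bins of 198 or 199 by density. From the lowest to the highest bin, the median went from 2.05 to 2.61, 1.02 to 1.95 and 1.29 to 1.95 in the LmnA, LmnC and LmnB1 RNAi maps. Over the 794 stretches density and signal correlated at r = 0.36, 0.39 and 0.39. Denser stretches have shorter fragments, and the share of fragments read in the fusion library alone rose from 21.9% to 24.4%, 16.5% to 20.7% and 17.3% to 20.8% between the same bins. The share at the constant of the map, with 0 or equal reads, rose too. It went from 23.5% to 29.3%, 25.8% to 29.7% and 26.9% to 31.7%. Without single-library fragments the correlations were 0.20, 0.31 and 0.20, and with fragments of 500 bp or more 0.26, 0.31 and 0.23. Without single-library fragments the medians of the lowest and highest bins were 0.90 and 1.09, 0.48 and 0.88, and 0.47 and 0.68. There the LmnA RNAi median did not rise at every step, with 0.99 in the second bin and 0.97 in the third. The part of fragment length and base composition in this relation was not tested further.

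**Figure D5:**
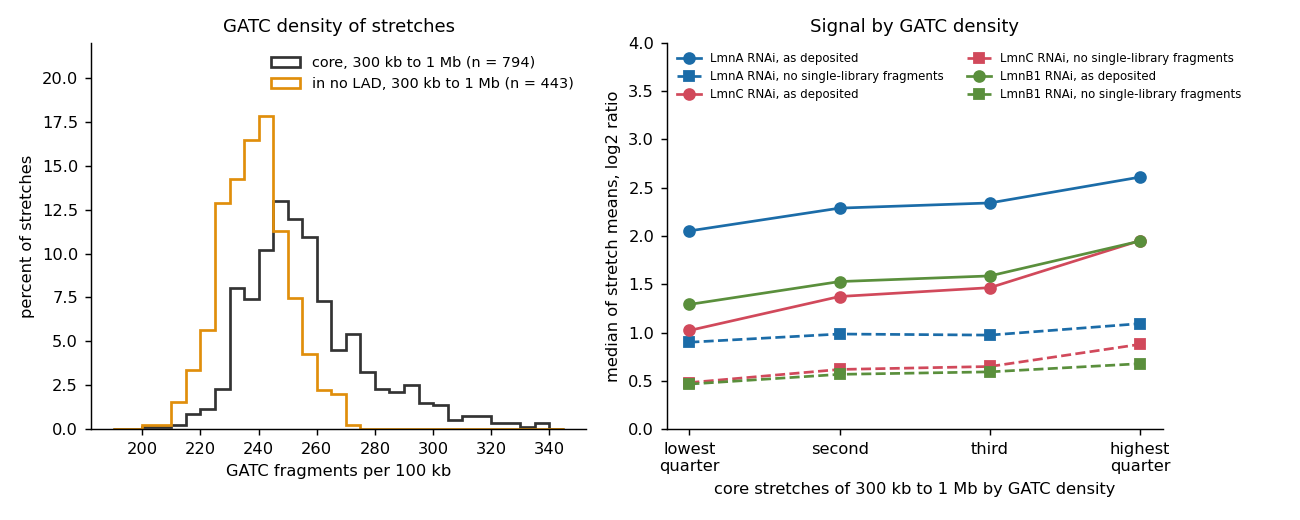
Left, percent of stretches (y axis) by GATC fragments per 100 kb (x axis) for the 794 core stretches of 300 kb to 1 Mb and the 443 stretches of that length in no LAD. Right, median stretch mean log2 ratio (y axis) in 4 bins of the 794 by GATC density (x axis), as deposited (circles, solid) and without single-library fragments (squares, dashed); the core stretches reach 335.8 fragments per 100 kb and every median is higher in the highest bin than in the lowest.

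Stretches near each other on a chromosome were weakly alike. Over 775 pairs of neighbouring stretches the mean ratio correlated at r = 0.14, 0.18 and 0.11 in the LmnA, LmnC and LmnB1 RNAi maps. The LmnC minus LmnB1 RNAi difference was more alike between neighbours, at r = 0.38, than the LmnA minus LmnC RNAi difference, at 0.20, or the LmnA minus LmnB1 RNAi difference, at 0.15. Over chromosomes the median LmnC minus LmnB1 RNAi difference ran from -0.37 on chromosome 3 to 0.05 on chromosome 17. The median LmnA RNAi value ran from 1.97 on chromosome 15 to 2.58 on chromosome 17. Both stretches of a pair lie on the same chromosome, and base composition was not measured. These correlations are descriptions without a test.

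Isolated stretches were not necessarily weak. The one farthest from another core stretch, chr11:118359756-118823638 (464 kb), lay 2851 kb from the nearest and measured 1.38 ± 0.14, 0.84 ± 0.20 and 0.89 ± 0.12 in the LmnA, LmnC and LmnB1 RNAi maps. Next in isolation, at 2330 kb from its nearest neighbour, were chr8:131273110-131738534 and chr8:128202090-128942907, which are each other's neighbours. The former measured 3.03 ± 0.16, 2.23 ± 0.16 and 2.95 ± 0.16, the highest LmnB1 RNAi value of all 794. The latter measured 1.44 ± 0.10, 0.79 ± 0.10 and 1.10 ± 0.10. Signal and distance to the nearest core stretch correlated at r = -0.14, -0.07 and -0.11.

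The length limits cut through a continuum. Just inside the lower limit were chr11:107544778-107844972 (300.2 kb), with 2.29 ± 0.18, 0.89 ± 0.15 and 0.75 ± 0.14, and chr6:91712996-92014007 (301.0 kb), with 1.12 ± 0.17, -0.12 ± 0.16 and 0.04 ± 0.14. Just below it were stretches of 299.96 kb, with 2.47, 0.86 and 1.56, and 299.7 kb, with 1.35, 0.37 and 0.83. Just inside the upper limit were the 999.7 kb stretch on chromosome 7 and chr5:28760481-29758310 (997.8 kb), with 2.69 ± 0.11, 2.09 ± 0.11 and 1.91 ± 0.10. Just above it were stretches of 1000.7 kb, with 2.10, 1.48 and 2.00, and 1002.3 kb, with 2.28, 1.77 and 2.42.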

How the data were processed

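The submitters' processing notes name Bowtie, without a version, and the mm9 build. The read filters and the LAD caller were not stated in the sources at hand. The authors deposited 1 log2 value per GATC fragment. From their steps, these values are the log2 ratio of fusion to Dam-only reads after 1e-05 was added to each, shifted by a constant (-0.34, 0.21 and -0.15 for LmnA, LmnC and LmnB1 RNAi). Reads recovered from single-library fragments (size above 12) were whole numbers to within 0.02 for 100% of those of at most 100 reads. A value at the constant means 0 or equal reads. LAD lists were intersected as intervals, and stretch means were weighted by fragment length and tested on simulated data (Python 3.11.15, numpy 2.4.6, pandas 2.3.3). The simulated stretches held no single-library fragments, so the simulation does not test the means where such fragments count. The 500 kb windows were covered by fragments over at least 50%. A difference was counted past 0.5 on the log2 scale.

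Each group held 1 library, so no test was made. The alternatives were other fragments, weights, offsets, edge distances and gap rules; those with 1 read added, fragments of 500 bp or more and without fragments at the constant were chosen after seeing the data. The stretches, lists and rules were chosen with earlier results of these data known. Stretches were named as the 3 most extreme in length, in each map, in each difference, in GATC density, in isolation and in the lowest map, as those next to the length limits and as the 1 closest to all medians; interior dips were added after their values were seen. No genes or sequences are given, since no mm9 genome or annotation was used here.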

Additional observations from a re-analysis of the deposited data

How the results depend on the processing

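No paired analysis was possible because each group holds 1 library. Values follow in the order LmnA, LmnC and LmnB1 RNAi, and differences in the order LmnA minus LmnC, LmnA minus LmnB1 and LmnC minus LmnB1 RNAi. Median signal was 1.00, 0.66 and 0.59 without fragments read in 1 library, 3.85, 2.84 and 2.78 as a plain mean over fragments, 1.02, 0.71 and 0.63 with 1 read added, 1.12, 0.71 and 0.69 without single-library fragments and fragments at the constant, and 1.08, 0.47 and 0.62 with fragments of 500 bp or more. The median differences under these settings were 0.31, 0.39 and 0.057, then 0.99, 1.02 and 0.020, then 0.29, 0.38 and 0.062, then 0.40, 0.44 and 0.017, and with 500 bp or more 0.61, 0.45 and -0.17. With centred maps they were -0.28, 0.019 and 0.30, and with centred maps and fragments of 500 bp or more -0.087, 0.12 and 0.20. LmnA minus LmnC RNAi thus changed sign with centring. LmnC minus LmnB1 RNAi changed sign in every setting but that of 500 bp or more without centring. Stretches past 0.5 in either direction numbered 163, 203 and 2 without single-library fragments, 152, 174 and 3 with 1 read added, 252 and 105 with centred maps for the first 2 differences, and 315 and 93 with 500 bp or more for the last 2. Shared edges made up 7.43% within 5 kb and 26.7% within 25 kb. The centre minus edge difference was 0.094, 0.11 and 0.087 without single-library fragments, 0.092, 0.11 and 0.083 with 1 read added, 0.10, 0.12 and 0.10 with 500 bp or more, and 0.19 and 0.12 with a 25 kb edge zone after LmnC and LmnB1 RNAi. Per 100 kb covered by fragments the GATC density was 254.5. The number of stretches was 795 with assembly gaps removed and 794 with stretches under 25 kb apart joined. Beyond the number added before the log and the choice of fragments, which set these values by construction, the cause was not tested. Total reads per library are unknown, so no interval for counting error is given.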
